A study of Mus musculus with 2 samples.

Results

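The genes described here encode proteins of late neutrophil maturation: the secondary granule proteins Ltf, Lcn2, Camp, Ngp and Mmp8, the tertiary granule protein Mmp9, the secreted proteins Chil3 and Retnlg, and the calprotectin subunits S100a8 and S100a9. All 10 genes, of 19938 measured, were lower in the pool of KSL cells labelled Nrf2 KO, from mice lacking the transcription factor NRF2, than in the pool of wild-type KSL cells. Of all genes measured, 46.9% were lower. Retnlg was 6.31-fold lower, Lcn2 4.27-fold and Mmp8 4.01-fold lower, while S100a9 was 1.93-fold and Mmp9 1.77-fold lower. Signals of Retnlg, Mmp8 and Mmp9 were weak in the KO-labelled pool, so their sizes are less sure. A gene was a member if a probe set of the array was annotated with that symbol alone, and each of the 10 had 1 such probe set. The set was chosen by function and with its knockout minus wild-type differences already known, so the differences are given as a description and carry no test.

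KSL cells are marrow cells that express c-Kit and Sca-1 and lack antigens of mature blood lineages, and they include the haematopoietic stem cells. The series compared them in Nrf2 KO and wild-type C57BL/6J mice, 8 to 10 weeks old, healthy and kept under clean, germ-free conditions. Marrow of 5 mice per genotype was pooled before sorting and 1 RNA sample per pool was hybridised to 1 array, so no value had a replicate and no p-value was computed. The labels name no cell type to which the loss of NRF2 was restricted and leave the deleted segment of the gene unstated.

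Neutrophil granules are made in waves: primary granules are filled at the promyelocyte stage, secondary granules at the myelocyte and metamyelocyte stages and tertiary granules later still. C/EBP epsilon, a transcription factor encoded by Cebpe, is required for secondary granule genes, and mice without it lack lactoferrin and gelatinase in their neutrophils. Calprotectin, the dimer of S100A8 and S100A9, is a calcium- and zinc-binding protein of the neutrophil cytosol that is released in inflammation and can act through TLR4. Stem cells and multipotent progenitors are upstream of all of these stages.

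The arrays were checked before the genes were read. The median log2 intensity was 6.41 on both arrays. Nfe2l2, which encodes NRF2, stood at 9.07 on the array labelled Nrf2 KO and 9.16 on the wild-type array, differing by −0.09, so its probe set did not separate the labels. Where its probes lie relative to the deleted part was not checked, and every direction below rests on the labels. Kit, the c-Kit receptor of the gate, was at 11.21 in the KO-labelled pool and 10.93 in the wild-type pool. Ly6a, which encodes Sca-1, had no probe set with that symbol alone and was not analysed here. Of 13 KSL and stem cell markers listed, 9 passed the level filter, and their differences ran from −0.45 to 0.36 with a median of 0.10. The level filter kept the 9970 genes whose mean over the 2 arrays was at least 6.57, the median over genes. It is not a test of detection. Disagreement between the 2 probe sets of 515 genes past the filter put the error of a single difference at an SD of 0.32, or 0.17 by a robust estimate. Variation between mice, sorts and amplifications is not part of that error.

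The secondary granule proteins include both iron-binding proteins of the set. Ltf, or lactoferrin, which binds iron directly, had a log2 intensity of 7.90 in the KO-labelled pool and 9.59 in the wild-type pool, differing by −1.69. Lcn2, which captures bacterial siderophores and so withholds iron, stood at 7.07 in the KO-labelled pool and 9.16 in the wild-type pool, differing by −2.10. Both were over 2-fold lower, and both stayed above the filter level on each array.

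The cathelicidin-type proteins of these granules were lower by unequal amounts. Camp, the precursor of the mouse cathelicidin antimicrobial peptide, was at 8.74 in the KO-labelled pool and 10.38 in the wild-type pool, differing by −1.64. Ngp, neutrophilic granule protein, which is related to cathelicidins and cystatins, was at 10.70 in the KO-labelled pool and 11.69 in the wild-type pool, differing by −0.99. The difference of Ngp was 1.98-fold, just short of the 2-fold size, and that of Camp was 3.12-fold.

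Both metalloproteinases were lower, and both gave weak signals in the KO-labelled pool. Mmp8, the neutrophil collagenase, stood at 5.74 in the KO-labelled pool and 7.75 in the wild-type pool, 4.01-fold lower. Mmp9, the gelatinase after which tertiary granules are also named, stood at 5.87 in the KO-labelled pool and 6.69 in the wild-type pool, differing by −0.82. They were below the filter level of 6.57 there, and sizes are less sure for such weak signals. Mmp8 passed the filter through its wild-type value, and Mmp9, with a mean of 6.28, did not pass it.

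The secreted proteins of the set were both over 3-fold lower. Chil3, the chitinase-like protein also called Ym1, which neutrophils and some macrophages make, was at 8.26 in the KO-labelled pool and 10.04 in the wild-type pool, differing by −1.78. Its close paralog Chil4 had a probe set of its own, below the filter on both arrays, and differed by −0.57; whether probes of either gene detect the other was not checked. Retnlg, a resistin-like protein of neutrophils, was at 5.36 in the KO-labelled pool and 8.01 in the wild-type pool, differing by −2.66. This was the lowest of the 10 differences and passed the filter only through the wild-type value.

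The calprotectin subunits were lower too, S100a8 by more than S100a9. S100a8 was at 10.34 in the KO-labelled pool and 11.79 in the wild-type pool, differing by −1.45. S100a9 was at 11.30 in the KO-labelled pool and 12.25 in the wild-type pool, differing by −0.95. The gap between the 2 differences cannot be tested with 1 array per genotype.

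**Figure D1:**
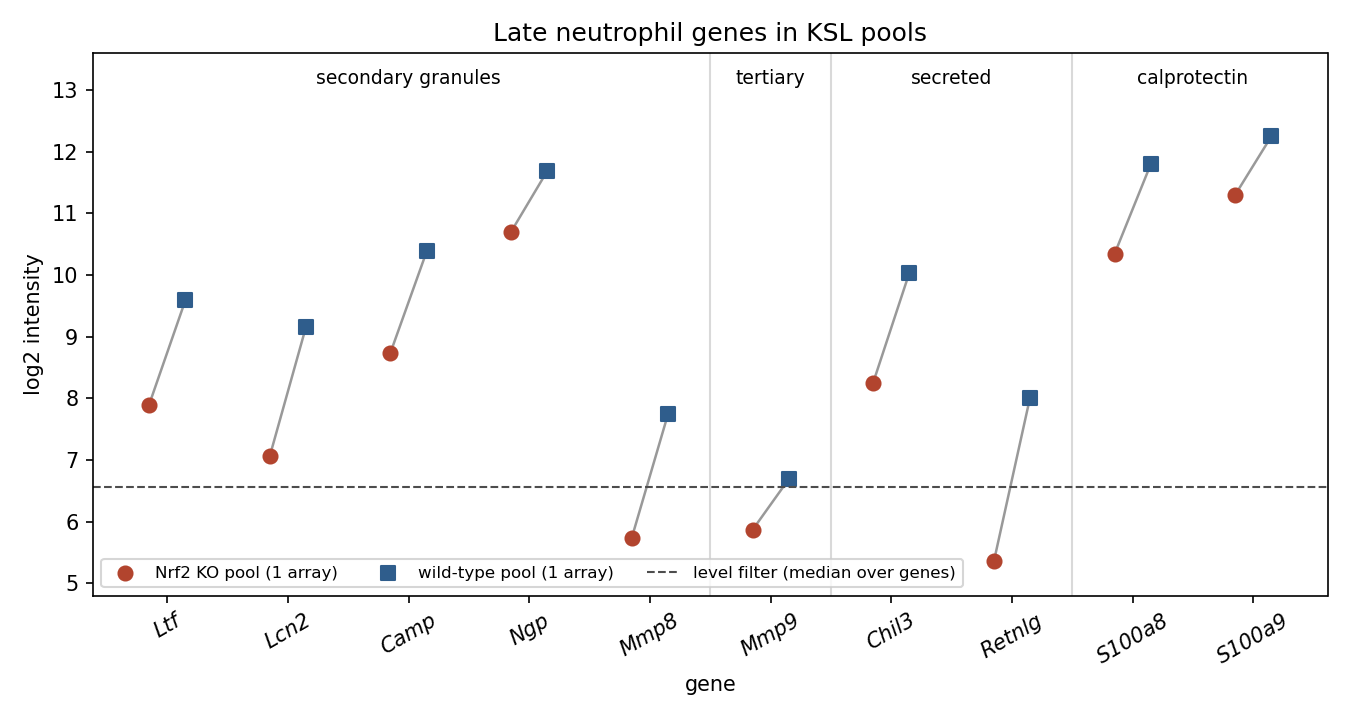
Log2 intensity of the 10 genes, grouped by role along the horizontal axis, with the KO-labelled pool as circles left and the wild-type pool as squares right; each point is 1 array and no error bar exists. Every circle lies below its square, and the circles of Mmp8, Mmp9 and Retnlg lie below the dashed level filter at 6.57.

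Of the 10 genes, 7 were at least 2-fold lower in the KO-labelled pool, against 0.602% of all genes measured. The 3 others, Ngp, S100a9 and Mmp9, were at least 1.5-fold lower, a size that 3.15% of all genes reached, and 46.9% of all genes were lower at any size. These shares are printed as background only, since the members were chosen with this contrast in view. The differences ran from −2.66 to −0.82, with a median of −1.67 and an SD of 0.58 among the genes; the median over all genes was 0.01. The bulk arrays cannot tell fewer cells carrying these transcripts from less transcript per cell.

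The scatter of differences was narrower where signals were intense: over the 285 genes with a 2-array mean at or above that of S100a8, the SD of the differences was 0.19, against 0.33 over all genes past the filter. S100a8, S100a9 and Ngp are among the 285.

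**Figure D2:**
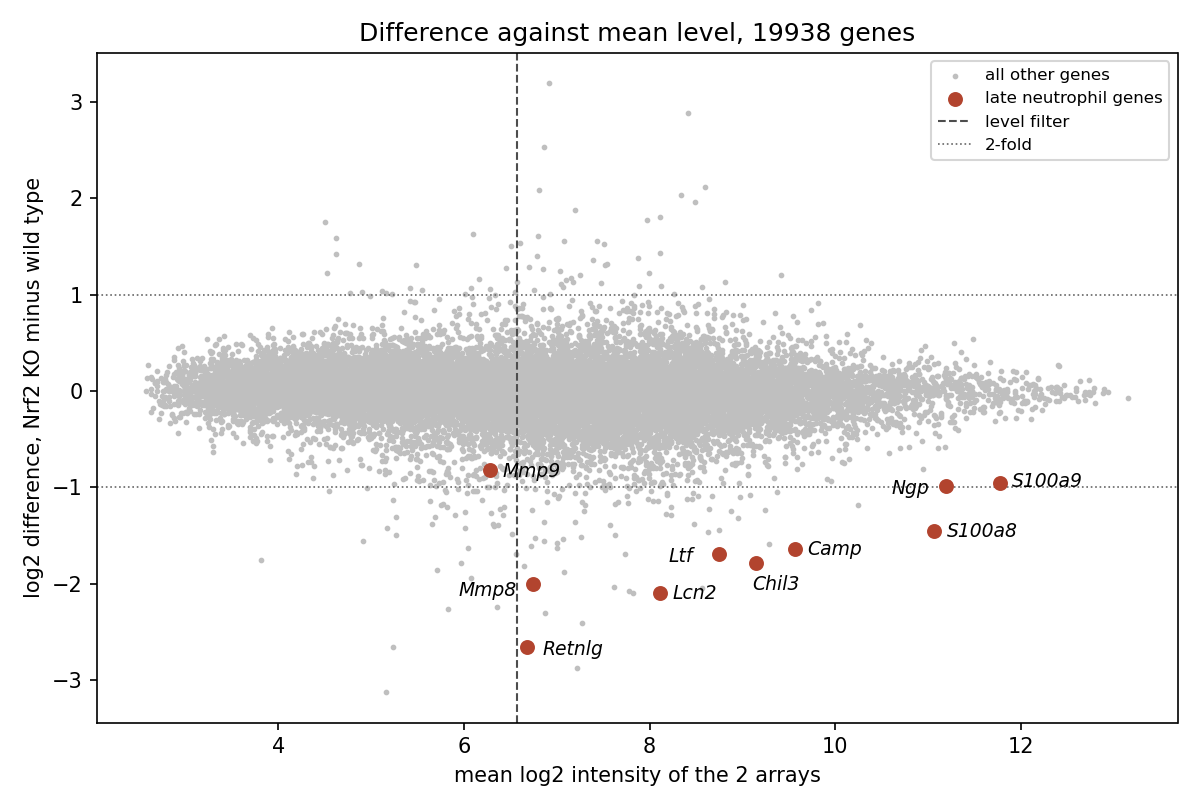
Log2 difference, Nrf2 KO minus wild type, against the mean log2 intensity of the 2 arrays for 19938 genes; large points are the 10 late neutrophil genes, dotted lines mark 2-fold and the dashed line the level filter. The 10 genes lie low in the cloud at their own intensity, from Mmp9 at a mean of 6.28 to S100a9 at 11.77. Near the intensity of Mmp9 other genes lie lower still.

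Promoter sequences show which of the 10 genes carry letters of the C/EBP consensus near their start, the motif bound by the factor known to drive secondary granule genes. RefSeq promoters of build GRCm38.p6 were matched by symbol for 9 of the 10 genes, and the 250 bases before the annotated start were searched on both strands. The motif TTNNGNAA, or TTNCNNAA on the other strand, occurred in 8 of the 9, against 36.8% of 32851 promoters of the same length. Promoters of 1 chromosome, which carries none of the 10 genes, were left out of the search. Camp held no match in this window. The core of the antioxidant response element, the motif of NRF2, searched as TGANNNNGC, occurred in 5 of the 9, namely Ltf, Camp, Ngp, Mmp8 and Chil3, against 35.2% of the promoters searched. PU.1 letters, GAGGAA, occurred in 4 of the 9 against 23.3%, and the NF-kB motif in 3 against 45.8%. GATA letters, AGATAA, occurred in 3 against 9.99%, and RUNX letters, TGTGGT, in 1 against 14%. Matches of different motifs may overlap, short degenerate motifs match often by base content, and a match is not a bound site. The GC content of the 9 windows ran from 36.4% to 59.2% with a median of 52.4%, equal to the median over the promoters searched.

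The windows of 6 genes are printed 5′ to 3′ on the gene's strand with C/EBP letters in capitals: Ltf at chr9:111019042-111019291 on the plus strand, Camp at chr9:109849457-109849706 on the minus strand, Ngp at chr9:110419558-110419807 on the plus strand, Mmp8 at chr9:7558179-7558428 on the plus strand, Retnlg at chr16:48872358-48872607 on the plus strand and S100a9 at chr3:90695722-90695971 on the minus strand. They cover 1 iron binder, both cathelicidin-type genes, the collagenase, the gene with the lowest difference and a calprotectin subunit.
Ltf: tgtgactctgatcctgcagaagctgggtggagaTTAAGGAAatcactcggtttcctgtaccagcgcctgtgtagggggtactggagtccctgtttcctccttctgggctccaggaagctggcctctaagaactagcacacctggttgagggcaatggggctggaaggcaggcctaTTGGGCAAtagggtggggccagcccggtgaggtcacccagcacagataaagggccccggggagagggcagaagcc
Camp: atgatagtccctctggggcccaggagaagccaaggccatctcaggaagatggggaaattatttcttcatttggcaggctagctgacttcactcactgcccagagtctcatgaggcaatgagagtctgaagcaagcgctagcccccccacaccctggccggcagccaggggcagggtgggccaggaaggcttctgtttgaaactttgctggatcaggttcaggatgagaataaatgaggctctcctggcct
Ngp: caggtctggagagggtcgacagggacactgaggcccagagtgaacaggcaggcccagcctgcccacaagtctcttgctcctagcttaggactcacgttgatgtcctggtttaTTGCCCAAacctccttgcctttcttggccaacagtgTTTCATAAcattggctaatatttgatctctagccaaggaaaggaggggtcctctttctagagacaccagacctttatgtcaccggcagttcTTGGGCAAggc
Mmp8: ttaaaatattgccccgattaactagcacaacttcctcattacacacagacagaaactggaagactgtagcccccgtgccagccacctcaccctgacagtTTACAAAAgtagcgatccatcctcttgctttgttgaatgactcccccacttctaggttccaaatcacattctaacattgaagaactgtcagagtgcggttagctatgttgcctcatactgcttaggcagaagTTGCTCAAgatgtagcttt
Retnlg: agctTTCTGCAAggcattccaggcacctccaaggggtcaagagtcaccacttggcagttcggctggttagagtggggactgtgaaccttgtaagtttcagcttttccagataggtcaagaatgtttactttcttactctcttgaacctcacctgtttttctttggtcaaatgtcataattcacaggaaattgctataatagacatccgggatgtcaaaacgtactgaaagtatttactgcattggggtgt
S100a9: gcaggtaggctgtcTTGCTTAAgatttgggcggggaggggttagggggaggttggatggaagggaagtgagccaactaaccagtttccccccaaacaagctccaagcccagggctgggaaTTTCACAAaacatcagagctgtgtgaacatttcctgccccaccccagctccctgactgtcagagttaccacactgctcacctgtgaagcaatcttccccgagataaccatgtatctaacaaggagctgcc

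Ngp and Chil3 held 3 matches each, Ltf, Mmp8 and S100a9 held 2, and Lcn2, Retnlg and S100a8 held 1; no relation between these counts and the differences was computed. Ltf held 2 matches, starting at positions −217 and −75 relative to the annotated start. Of the 2 matches in Mmp8, 1 started at position −19.

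**Figure D3:**
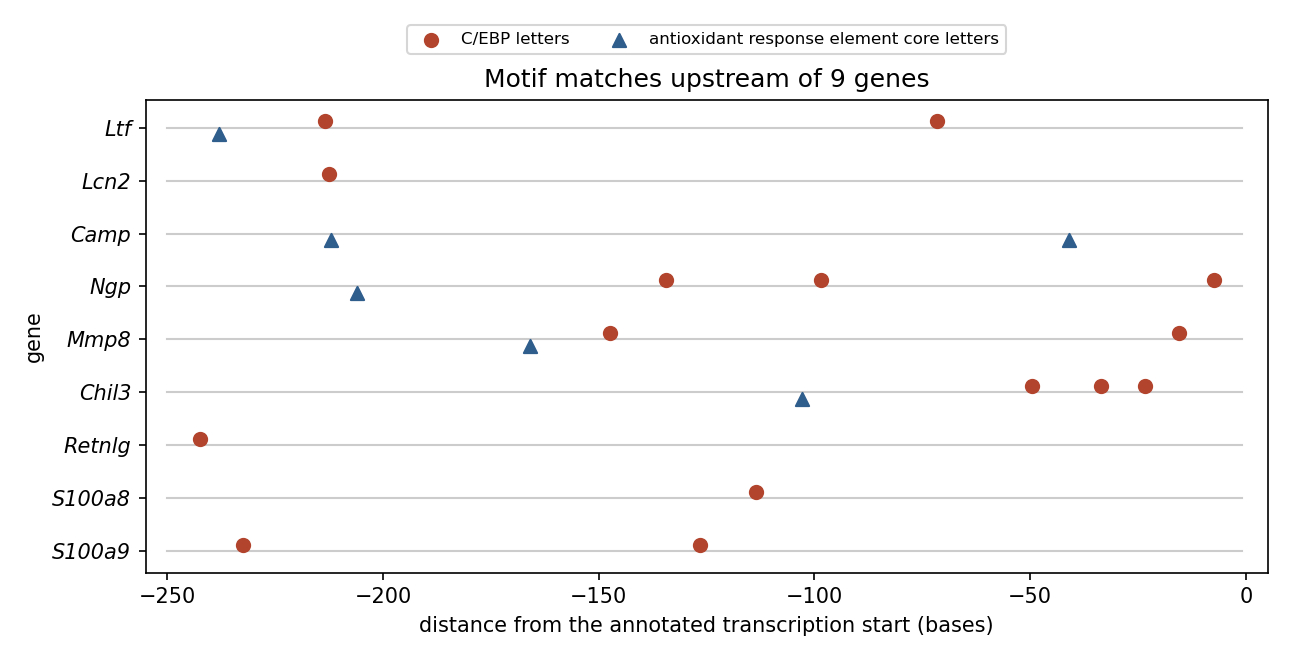
Positions of C/EBP letters (circles) and loose antioxidant response element core letters, TGANNNNGC (triangles), in the 250 bases before the annotated start of 9 genes. The axis is distance from the start in bases, and each symbol is 1 match on either strand. Ngp and Chil3 have 3 C/EBP matches each, and Camp has 2 matches to the loose core and no C/EBP match.

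The transcription factors of granulocyte maturation were close to level between the pools. Of 17 listed, 14 passed the filter, 8 lower and 6 higher in the KO-labelled pool, with a median of −0.03 and 0 at least 2-fold apart in either direction. Such sizes were rare among all genes past the filter, 0.762% down and 0.411% up, so a count of 0 says little. Cebpe stood at 6.35 in the KO-labelled pool, under the filter level, and 6.94 in the wild-type pool, differing by −0.59, the lowest of the list. Spi1, which encodes PU.1, differed by −0.12, the retinoic acid receptor Rara by −0.21 and Runx1 by 0.36. The machinery of granule formation and release was nearly level as well, with a median of −0.05. Of 16 measured genes, all past the filter, 13 were lower and 3 higher, while 52.9% of all genes past the filter were lower. In that list the secretory GTPases Rab37 and Rab3d differed by −0.35 and 0.29, Hax1, a gene of congenital neutropenia in humans, by −0.33 and the SNARE regulator Stxbp3 by −0.32.

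Other genes of late neutrophil maturation were mostly lower. Of 47 listed, 43 were measured and 25 passed the filter. Some of the listed genes, such as Itgam and Cybb, are not particular to neutrophils. In the KO-labelled pool 22 of the 25 were lower, beside 52.9% of all genes past the filter. At least 2-fold lower were 6 of the 25, against 0.762%, and 12 were at least 1.5-fold lower, against 4.3%. Cxcr2 and Il1r2, both among the 6, passed the filter only through their wild-type values, standing at 6.19 and 6.52 in the KO-labelled pool. So did Clec4e, at 6.55 there, and Itgb2l, at 6.44, which were under 2-fold lower. None of the 25 was at least 2-fold higher, against 0.411% of genes past the filter. The median of the list was −0.57, against −0.02 for all genes past the filter. Of the 18 measured genes below the filter, 14 were lower, beside 40.9% of all genes below it, and 3 were at least 2-fold lower, against 0.441%, with a median of −0.38 against 0.03. Summed over the 43 measured genes, linear intensity in the KO-labelled pool was 62.5% of that in the wild-type pool. Differences of several of these genes were known when the list was drawn up, so it gives no independent evidence of direction.

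The 6 genes differed in role. Cxcr2, the chemokine receptor that draws neutrophils to tissue, was at 6.19 in the KO-labelled pool and 7.81 in the wild-type pool, differing by −1.63. Cybb, the catalytic subunit of the phagocyte NADPH oxidase, was at 8.50 in the KO-labelled pool and 10.08 in the wild-type pool, differing by −1.59. Pglyrp1, a granule protein that binds bacterial peptidoglycan, differed by −1.46, the interleukin 1 decoy receptor Il1r2 by −1.36, annexin Anxa1 by −1.20 and the glycogen phosphorylase Pygl by −1.06. Not every neutrophil gene was lower: named after their values were seen, the G-CSF receptor Csf3r was at 9.06 in the KO-labelled pool and 8.94 in the wild-type pool, and Ly6g, the antigen of mature neutrophils, was at 5.41 in the KO-labelled pool and 4.90 in the wild-type pool, below the filter on both arrays.

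Primary granule genes, expressed earlier in maturation, were mostly lower as well. Of 14 measured, 13 passed the filter, 11 of them lower, with a median of −0.28 and 2 at least 2-fold lower. Over all genes past the filter 52.9% were lower and 0.762% at least 2-fold lower. Elane, neutrophil elastase, was at 7.42 in the KO-labelled pool and 8.54 in the wild-type pool, differing by −1.12. Ctsg, cathepsin G, was at 8.43 in the KO-labelled pool and 9.52 in the wild-type pool, differing by −1.10. Ms4a3 differed by −0.92 and the serine protease Prss57, which passed the filter only through its wild-type value, by −0.41. Set side by side, the medians were −1.67 for the 10 late genes and −0.28 for the 13 primary granule genes; with 1 array per genotype the gap between them has no test.

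Monocyte and macrophage markers were mostly lower on the same array. Of 16 listed, 14 were measured and 10 passed the filter, 9 lower and 1 higher, with a median of −0.73, and 2 of the 10 were at least 2-fold lower. Over all genes past the filter 52.9% were lower and 0.762% at least 2-fold lower. The higher marker was Cd68, at 9.31 in the KO-labelled pool and 8.68 in the wild-type pool, differing by 0.63. The chemokine Ccl6 differed by −1.52, Ms4a6b by −0.80 and fibronectin, Fn1, by −0.80, and Ms4a6c was 2.01-fold lower. Ccl6, at 6.51, and Fn1, at 6.41, were under the filter level in the KO-labelled pool. Summed over the 14 measured markers, linear intensity in the KO-labelled pool was 75.5% of that in the wild-type pool. The part of monocytes, mature neutrophils or their RNA in the differences of the 10 genes was not tested.

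Antigens commonly used to remove mature lineages gave few signals past the filter, 3 of 8 listed. Itgam, the CD11b antigen of neutrophils and monocytes, was at 7.57 in the KO-labelled pool and 8.52 in the wild-type pool, differing by −0.95, while the interleukin 7 receptor Il7r differed by 0.25 and the T cell receptor subunit Cd3e by −0.11. Which antibodies made up the lineage mix is not stated in the labels.

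Markers of other lineages had no gene at least 2-fold apart past the filter. Differences of that size were rare there in general, with 0.762% of all genes down and 0.411% up. Lists this short would mostly hold none at such rates, so the absence sets no contrast with the myeloid lists. The medians were 0.18 over 5 B lineage genes, −0.30 over 4 T and NK genes, 0.03 over 3 erythroid genes and 0.10 over 6 megakaryocyte genes. They were −0.08 over 6 mast cell, basophil and eosinophil genes, 0.25 over 7 dendritic cell genes and −0.04 over 5 stromal and endothelial genes. Summed over measured genes, linear intensity in the KO-labelled pool was 75.4% of that in the wild-type pool for the 10 T and NK genes, close to the 75.5% of the monocyte and macrophage markers. It was 79.7% for the 7 lineage antigens measured, and between 91.3% for erythroid and 115% for megakaryocyte genes in the other lists of this kind. Such sums mostly follow the most intense genes. In the T and NK list these were Nkg7, which differed by −0.48, and Ccl5, which differed by −0.70. Among the lineage antigens it was Itgam. Past the 75th percentile of level these lists keep 1 to 4 genes each, and the erythroid median and that of mast cells, basophils and eosinophils change sign. Single genes of these lists reached 0.79, for the platelet factor Pf4, and −0.90, for the platelet glycoprotein Gp5.

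**Figure D4:**
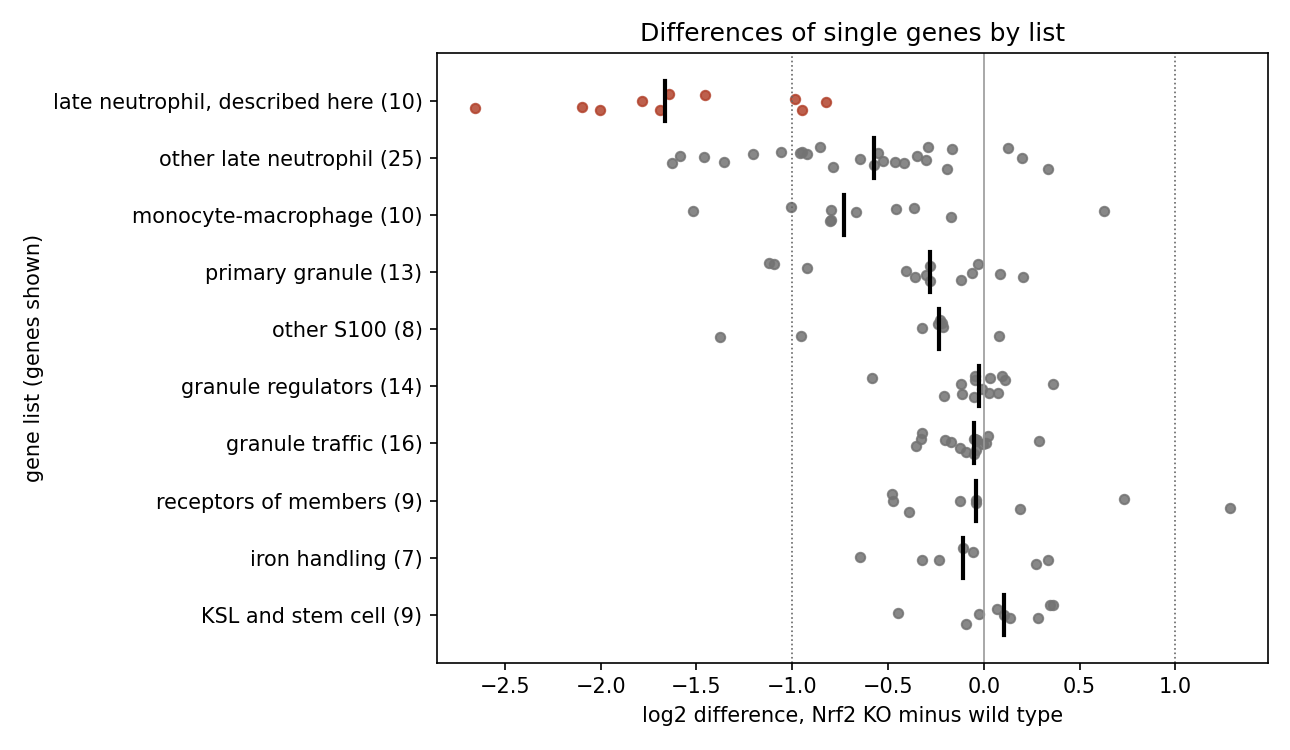
Log2 difference, Nrf2 KO minus wild type, of single genes in 10 lists, with the median of each as a vertical bar, 0 as a solid line and 2-fold as dotted lines. The first row holds all 10 late neutrophil genes with a median of −1.67; the other rows hold only genes past the level filter, with medians from −0.73 for monocyte-macrophage genes to 0.10 for KSL and stem cell markers.

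Receptors and partners of the encoded proteins lay on both sides of 0. Past the filter 6 of 9 genes were lower and 3 higher, with a median of −0.04, while 52.9% of all genes were lower there. Ly96 and Tlr4, of the TLR4 complex, a calprotectin receptor, were among the higher. Ly96, the co-receptor of TLR4, was at 7.34 in the KO-labelled pool and 6.06 in the wild-type pool, differing by 1.28, and Tlr4 itself was at 7.03 in the KO-labelled pool and 6.30 in the wild-type pool, differing by 0.73. The wild-type values of Ly96 and Tlr4 lay under the filter level. Cd14, of the same list, went the other way, at 5.78 in the KO-labelled pool and 6.40 in the wild-type pool, differing by −0.62. It was below the filter on both arrays. Ager, another receptor of S100 proteins, differed by −0.48, and the lipocalin 2 receptor Slc22a17 by −0.48.

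Relatives of the 10 genes were examined by family. Of 14 other S100-named genes, 8 passed the filter, 7 lower and 1 higher, with a median of −0.23, while 52.9% of all genes past the filter were lower. The higher gene was S100pbp, which differed by 0.08 and is listed for its name, not as an S100 protein. S100a6 was at 7.79 in the KO-labelled pool and 9.17 in the wild-type pool, differing by −1.38, and S100a4, known from migrating myeloid and mesenchymal cells, was at 8.48 in the KO-labelled pool and 9.44 in the wild-type pool, differing by −0.95. S100a13 and S100a10 differed by −0.32 and −0.24. Of 20 other matrix metalloproteinases measured, 2 passed the filter: Mmp2, a gelatinase like Mmp9, differed by −0.81 and Mmp23 by 0.11. Of the inhibitors, 2 of 5 passed, Timp2 at −0.66 and Reck at 0.19. None of the 9 other chitinase-like and resistin-like genes measured passed the filter.

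Genes of iron uptake, storage and export outside the granules were near level, with a median of −0.11 over 7 genes. Of these, 5 were lower and 2 higher, while 52.9% of all genes past the filter were lower. Transferrin, Trf, differed by −0.64 and the ferritin light chain Ftl1 by −0.32, while the importer Slc11a2 differed by 0.34 and the transferrin receptor Tfrc by 0.27.

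Position on the chromosome was compared through the nearest 2 measured genes on each side, in the gene order of GRCm38.p6. Chromosome 9 carries 4 of the 10 genes, chromosome 3 carries 3, chromosome 2 carries 2 and chromosome 16 carries 1. S100a8 and S100a9 are neighbours of each other. The 10 genes had 36 different neighbours outside the set, of which 15 passed the filter. Their median was −0.07, and 8 were lower, beside 52.9% of all genes past the filter. Their differences ran from −1.38, for S100a6 near S100a8, to 0.41, for Nme6 beside Camp. At least 2-fold lower was 1 of the 15, against 0.762% of all genes past the filter. Mmp8 lies among other metalloproteinase genes, Retnlg beside Retnla and Chil3 between Chia1 and Chil4, and these relatives were below the filter on both arrays.

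**Figure D5:**
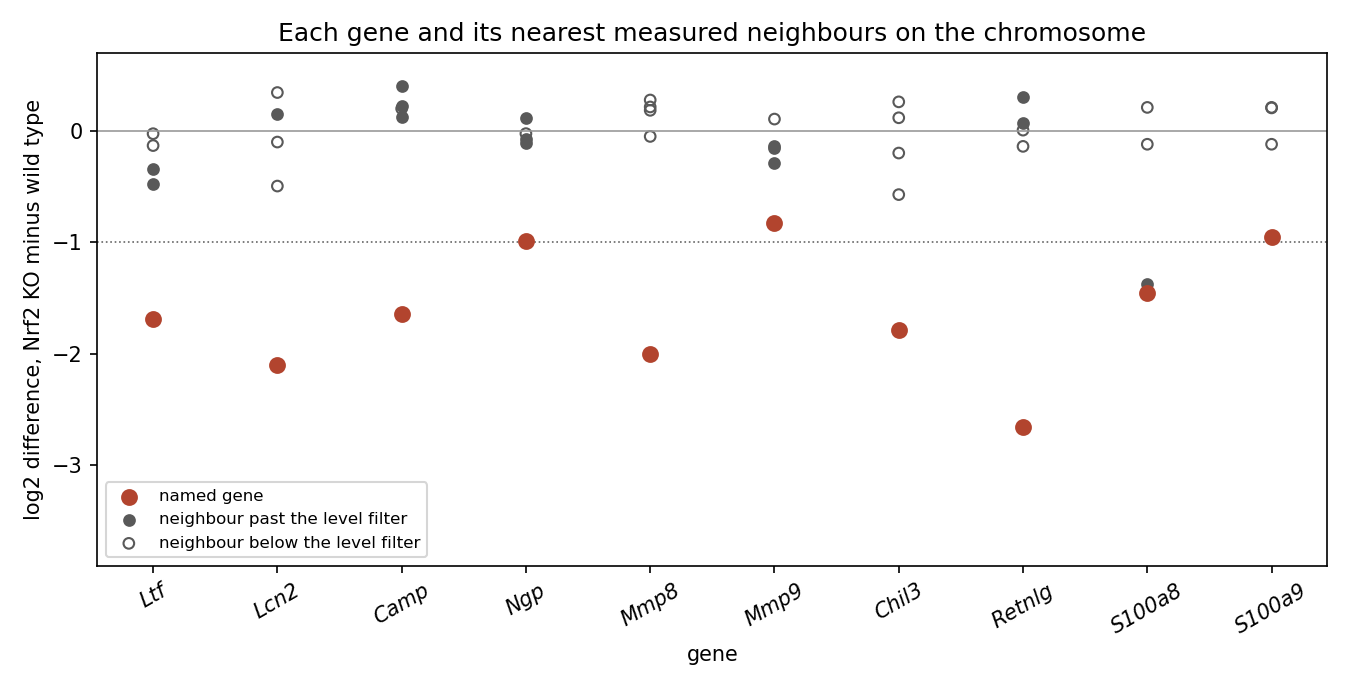
Log2 difference, Nrf2 KO minus wild type, of each of the 10 genes (large points) and of the nearest 2 measured genes on each side on its chromosome (filled where past the level filter, open where below it). Apart from S100a6 at −1.38 near S100a8, the neighbours lie between −0.57 and 0.41, and each of the 10 genes lies below its own neighbours outside the set.

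The genes past the filter with differences nearest to the median of the 10 were sought over all of the array, as a likeness in 1 difference between 2 arrays. They were Cxcr2 at −1.63, Bdh2 at −1.61, Cybb at −1.59, BC147527 at −1.58, Rassf4 at −1.55, Cdkn2c and Polr3g at −1.53 each and Ccl6 at −1.52. Of these 8, Cybb alone was above the filter level in the KO-labelled pool, at 8.50. Of 9473 other named genes past the filter, 7 were at or below the median of the 10: Tmem267, Cxcl10, Lif, Borcs6, Rida, Il1b and Taf9b, from −2.88 to −1.82. Tmem267, Cxcl10, Il1b and Taf9b passed the filter only through their wild-type values. The 10 were chosen with their differences known, so this count is a description and no sign that they stand out.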

How the data were processed

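Per the labels' protocols, RNA of 1 pool of sorted KSL cells per genotype came from a Qiagen RNeasy micro kit and was amplified with NuGEN Ovation kits for Affymetrix Mouse Gene ST 1.0 arrays. The table the authors deposited holds a log2 intensity for each probe set, running from 2.40 to 13.8; the log base was read from that range. Partek is named in the submitters' processing notes, without role or version. No source used here states the background correction, normalization or probe summary. The sorted values of the arrays differ by at most 0.0866, so a shift of all genes in 1 direction may not be visible.

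Of 28853 probe sets, 21789 carried 1 symbol of the platform annotation and were averaged by gene, 1621 carried several and 5443 none. Each difference is the log2 Nrf2 KO value minus the log2 wild-type value, with no further scaling and no test; genes were counted at 2-fold and 1.5-fold. Alternatives were median centring, quantile normalization, loess with a span of 0.3, no filter, a filter at the 75th percentile, the most intense probe set per gene, and leaving out the member of largest difference. The code was tested on simulated differences.

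Genes were named if they were members, Nfe2l2, Kit or Cebpe, the 4 largest absolute differences past the filter or any of 2-fold in a list (a selection of these for lists of other cell types), the 8 genes nearest to the median of the members, or the 8 lowest others without unnamed models, receptor families and small RNAs. Outside this, and named after their values were seen, are Chil4, Chia1, Retnla, Nme6, Csf3r, Ly6g, Ifitm6, Trem1, Clec4d, Clec4e, Itgb2l, Cd68, Cd14 and S100pbp. The members, lists and motifs were chosen with earlier results of these data known. Computation used Python 3.11.15, numpy 2.4.6, pandas 2.3.3 and statsmodels 0.14.6.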

Additional observations from a re-analysis of the deposited data

How the results depend on the processing

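The differences of all 10 genes kept their sign under median centring, quantile normalization and loess, and each gene's values spanned at most 0.04 on the log2 scale. The sorted values of the arrays already differed by at most 0.0866, so such rescalings had little room to move a difference or turn its sign. The count at least 2-fold lower stayed at 7 under those settings, was 5 past the 75th percentile filter, which 7 of the 10 genes pass, and was 10 at the 1.5-fold size. Taking the most intense probe set or dropping the filter could not change these values, since each of the genes has 1 probe set and all 10 were counted whatever their level. The median lay between −1.67 and −1.64 under the settings run, which include 9 genes without Retnlg and the 7 past the 75th percentile filter. Counts over all genes moved by construction with the filter and the size: without a filter 120 genes were at least 2-fold lower and 62 higher, past the 75th percentile filter 29 and 11, and at 1.5-fold 429 and 233. The median of the other metalloproteinases was −0.35 over 2 genes past the filter and 0.11 over all 20 measured. Past the 75th percentile filter fewer genes of each list are left: the median was −0.17 over 3 monocyte-macrophage genes, −0.36 over 2 erythroid genes and 0.26 over 2 mast cell, basophil and eosinophil genes, and the 1 gene left was at −0.48 for T and NK cells and at 0.79 for megakaryocytes. It was −0.20 over 10 primary granule genes, −0.11 over 12 granule traffic genes and −0.24 over 5 iron genes. No paired analysis was possible because each genotype has 1 array. With 1 array each, the spread between mice is unknown, and values under the filter level are the least sure.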

Other observations

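Of the 18 measured late neutrophil genes below the level filter, 3 were at least 2-fold lower in the KO-labelled pool, against 0.441% of all genes below it. Named after their values were seen, these 3 were Ifitm6, at 5.23 in the KO-labelled pool and 7.47 in the wild-type pool, Trem1, a receptor that amplifies neutrophil and monocyte inflammation, at 4.79 in the KO-labelled pool and 6.64 in the wild-type pool, and the lectin receptor Clec4d, at 5.30 in the KO-labelled pool and 6.72 in the wild-type pool. All 3 were above the filter level in the wild-type pool alone.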
